A study of Mus musculus with 15 samples.

Results

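Tumours of Lewis lung carcinoma (LLC) cells carrying SULT2B1b were compared with Mock-LLC tumours in 2 sorted myeloid populations, and the question addressed here is whether the tumour type had the same effect on both. The measure is the interaction: the SULT2B1b minus Mock difference in Ly6Chigh CD11c+ MHC-II+ cells minus the same difference in Ly6Clow cells. All 15 libraries of the series (15 of 15) enter it. The groups were Ly6Chigh CD11c+ MHC-II+ cells of SULT2B1b-LLC tumours (n = 4), Ly6Chigh CD11c+ MHC-II+ cells of Mock-LLC tumours (n = 4), Ly6Clow cells of SULT2B1b-LLC tumours (n = 3, tumours 2 to 4) and Ly6Clow cells of Mock-LLC tumours (n = 4). Cells were sorted at 10 days from established tumours, and all tumours grew from mouse LLC cells. The labels number the tumours but do not say that each came from its own mouse, so a p-value may reflect technical spread between samples alone. They also give neither the promoter that drives SULT2B1b nor the number of LLC clones, nor the mouse strain and age, and for the Ly6Clow cells they name no marker beyond Ly6C. A Ly6Clow library of SULT2B1b tumour 1 was not analysed here.

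SULT2B1b is a sulfotransferase that sulfates cholesterol and oxysterols, and sulfated oxysterols do not activate the liver X receptors (LXR), nuclear receptors that switch on lipid export genes and restrain inflammatory genes in macrophages. Ly6Chigh cells of tumours descend from inflammatory blood monocytes and can acquire CD11c and MHC-II as they mature towards antigen-presenting cells, whereas Ly6Clow cells are largely mature macrophages. Interferon-gamma acts on both and induces chemokines, guanylate-binding proteins and the MHC genes.

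Values are raw counts per gene scaled to library size (CPM), and changes are log2 fold changes from edgeR's quasi-likelihood fit to the 4 groups. A gene passes where the Benjamini-Hochberg adjusted p over all 13800 genes tested is under 0.05. A positive interaction means that the SULT2B1b effect was more positive in Ly6Chigh than in Ly6Clow cells. Depth differed by population, with 2617878 to 10626954 counts in the Ly6Chigh libraries and 19792494 to 39284008 in the Ly6Clow libraries. The spread differed too, while the fit gives each gene 1 estimate of the spread for all 4 groups. The median SD of log2(CPM + 1) within a group, over the 8735 better expressed genes (average log2 CPM at least 3), was 0.461 and 0.453 in the SULT2B1b and Mock Ly6Chigh groups, and 0.149 and 0.172 in the SULT2B1b and Mock Ly6Clow groups. The Ly6Chigh library of SULT2B1b tumour 1 stood apart, with 10.3% of its counts on unnamed gene models where the other 14 libraries were at 1.45% to 2.00%. Ly6c2, a gene of the sorting antigen, averaged 1605 ± 354 and 1382 ± 374 CPM in SULT2B1b and Mock Ly6Chigh cells, against 27.5 ± 6.8 and 27.2 ± 7.99 CPM in SULT2B1b and Mock Ly6Clow cells (SD), so the libraries followed their labels. Itgam, which encodes the myeloid integrin CD11b, stood between 789 and 2549 CPM in every library.

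Across the transcriptome, 2 genes passed the test of the interaction, the lipoxygenase gene Alox15 and the thrombospondin gene Thbs3. Both rose in SULT2B1b tumours in Ly6Chigh cells, and neither passed in Ly6Clow cells, where Alox15 differed 1.62-fold (adjusted p = 0.97) and Thbs3 overlapped between the tumour types. They are 0.0145% of the genes tested. An unadjusted p under 0.05 was reached by 986 genes (7.14%), 508 with a positive interaction (3.68%) and 478 with a negative one (3.46%), and the median interaction over all genes was 0.05. The number that passed depended on the model: 0 in edgeR and 4 in limma-voom with tumour as a block, 0 with quality weights per population or per library (limma-voom), 4 with unweighted limma-voom, which called Thbs3 and not Alox15, and 109 with DESeq2 (57 positive and 52 negative). It ran from 1 to 28 when a library was left out, with 28 without the Ly6Chigh library of Mock tumour 4, and a fit without the Ly6Chigh library of SULT2B1b tumour 1 gave 3.

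The precision of the interaction was lower than that of either effect alone. Its median standard error was 0.67 over all genes and 0.43 over the 8735 better expressed genes. For 2859 genes the 95% interval of the interaction lay inside -1 to 1, so for these a difference of more than 2-fold between the effects lay outside the interval. For the other genes tested the interval reached past at least 1 of these bounds.

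The SULT2B1b effect itself passed for 223 genes in Ly6Chigh cells (1.62%, 123 higher and 100 lower) and for 88 in Ly6Clow cells (0.638%, 70 higher and 18 lower). At an unadjusted p under 0.05 there were 15.6% of genes in Ly6Chigh cells (8.33% higher and 7.26% lower) and 3.74% in Ly6Clow cells (2.18% higher and 1.56% lower). Both sets held 35 genes, 28 higher in both populations and 7 lower in both, and 0 genes passed in opposite directions. Of these 35, 15 had an unadjusted interaction p under 0.05. A further 188 genes passed in Ly6Chigh and not in Ly6Clow cells and 53 passed in Ly6Clow and not in Ly6Chigh cells, but the interaction passed for only 2 of the 188 and for 0 of the 53. These classes were picked from the same values as the interaction, so its size within them is not a separate result. The split between the populations also moved with the fit. Fits to the libraries of 1 population alone gave 3 genes in Ly6Chigh and 422 in Ly6Clow cells, and quality weights per population gave 12 and 600. Calls of single genes in Ly6Chigh cells below come from the shared fit, whose 1 spread may be too small for these libraries. Of its 223 calls there, 3 passed with the Ly6Chigh libraries alone.

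**Figure D1:**
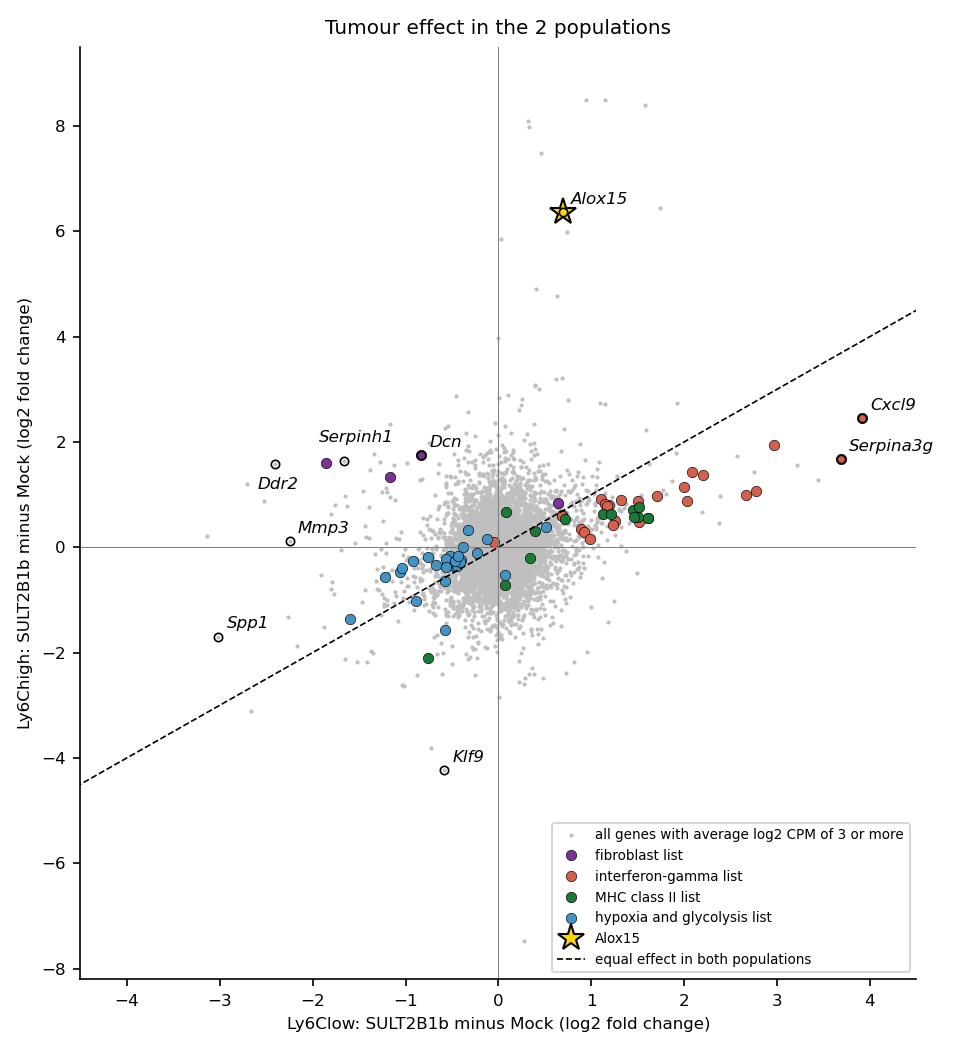
Log2 fold change of SULT2B1b over Mock in Ly6Clow cells (x axis) and in Ly6Chigh cells (y axis) for the 8735 better expressed genes (average log2 CPM at least 3), with 4 gene lists coloured, Alox15 as a star and 8 other named genes ringed. Points on the dashed line changed equally in both populations; most members of the interferon-gamma list lie right of 0 and below the line, and the plotted fibroblast genes lie above it.

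Alox15 encodes a lipoxygenase that oxygenates arachidonic and linoleic acid and is known from resident macrophages and eosinophils of the mouse (chromosome 11, 70344152 to 70352031 on GRCm38, minus strand). In Ly6Chigh cells it had 13.3, 7.13, 11.4 and 6.12 CPM in SULT2B1b tumours 1 to 4, against 0, 0, 0 and 0.362 CPM in Mock tumours 1 to 4. In Ly6Clow cells it had 359, 439 and 419.7 CPM in SULT2B1b tumours 2 to 4, against 227, 227, 240.2 and 308 CPM in Mock tumours. Every SULT2B1b library lay above every Mock library of its population, and 3 of the 4 Mock Ly6Chigh libraries held no Alox15 read. The Ly6Chigh values rest on 246 counts in SULT2B1b and 4 in Mock libraries, a ratio of 80.9 (95% interval 31.2 to 299, for counting error only). The change passed in Ly6Chigh cells (log2 fold change 6.36, adjusted p = 5e-05) and did not in Ly6Clow cells (0.70, adjusted p = 0.97). Both tests use the spread that the 2 populations share in the fit, and the Ly6Chigh libraries varied more than the Ly6Clow libraries. The Ly6Chigh p-value may therefore be too small. The miss in Ly6Clow cells does not show that Alox15 was unchanged there. The interaction was 5.66 (SE 0.65, 95% interval 4.29 to 7.04, adjusted p = 0.0036).

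Ly6Clow cells carried most of the Alox15 RNA in both tumour types. The Ly6Chigh level was 1.99%, 2.60% and 1.46% of the Ly6Clow level of the same tumour in SULT2B1b tumours 2 to 4, against 0%, 0%, 0% and 0.118% in Mock tumours 1 to 4. The log2(CPM + 1) difference between the populations was -5.47, -5.15 and -5.89 in SULT2B1b tumours and -7.83, -7.83, -7.91 and -7.83 in Mock tumours, with no overlap (exact two-sided permutation p = 0.0571, the smallest that 3 against 4 tumours can give). Alox15 passed in all 15 fits that left out a library (largest adjusted p = 0.0222). It did not pass with tumour as a block (edgeR adjusted p = 0.0776) or with limma-voom (0.0931 unweighted, 0.342 with weights per population), with an interaction of 5.52 to 5.81 in these fits.

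Of the markers of cells that express Alox15, 0 passed in either population or in the interaction with edgeR. At an unadjusted p under 0.05 the interaction was positive for 3 of 11 resident macrophage and 1 of 6 eosinophil markers tested, against 3.68% of all genes. The summed level of 13 resident macrophage markers ranged from 111 to 264 CPM in SULT2B1b and from 57.3 to 145 CPM in Mock Ly6Chigh libraries, and from 442 to 496 CPM in SULT2B1b and 377 to 675 CPM in Mock Ly6Clow libraries. As a share of the Ly6Clow sum of the same tumour, this was 59.8%, 27.4% and 23.1% in SULT2B1b tumours against 15.7%, 14.8%, 15.2% and 21.5% in Mock tumours. Gata6, Garnl3 and Marco of this list were at 0 in all Mock Ly6Chigh libraries. Garnl3 had 33, 0, 18 and 0 counts in the SULT2B1b Ly6Chigh libraries, and Gata6 was also at 0 in all SULT2B1b Ly6Clow libraries. Folr2, a marker of resident macrophages, had an interaction of 1.08 that did not pass (adjusted p = 0.59). The 9 eosinophil markers summed to 1.72 to 27.6 CPM in SULT2B1b and 2.12 to 15.04 CPM in Mock Ly6Chigh libraries, which overlap, and their defining genes Epx and Prg3 were at 0 in every Ly6Chigh library. Prg2, the eosinophil major basic protein gene, had reads in 1 of the 8 Ly6Chigh libraries, SULT2B1b tumour 2 with 1.49 CPM. Ear1, Ear6 and Il5ra of this list were at 0 in all Mock Ly6Chigh libraries, and each had reads in at least 1 SULT2B1b Ly6Chigh library. The part of resident macrophages or eosinophils in the Alox15 result was not tested. In bulk RNA of sorted cells, more cells of a type and more RNA per cell cannot be told apart.

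Thbs3 encodes thrombospondin-3, a secreted glycoprotein of the extracellular matrix (chromosome 3, 89215180 to 89226837 on GRCm38, plus strand). It had 8.33, 14.4, 12.9 and 5.49 CPM in the Ly6Chigh cells of SULT2B1b tumours 1 to 4, against 0 CPM in all 4 Mock Ly6Chigh libraries. The Ly6Clow cells had 1.46, 1.67 and 2.43 CPM in SULT2B1b tumours and 1.52, 1.61, 1.63 and 3.13 CPM in Mock tumours. Thus the Ly6Chigh groups were separate and the Ly6Clow groups overlapped. The Ly6Chigh libraries held 302 Thbs3 counts in SULT2B1b and 0 in Mock tumours, so the level was at least 107-fold higher by the 95% counting interval of the ratio (132-fold with the Mock group set at a floor of 3 counts). The interaction passed (adjusted p = 0.0402), as did the change in Ly6Chigh cells (adjusted p = 0.0014).

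The Thbs3 call was less stable than that of Alox15. It passed in 3 of 15 fits that left out a library, in those without the Ly6Chigh library of SULT2B1b tumour 1, of Mock tumour 2 or of Mock tumour 4, and missed the threshold in the other 12 (adjusted p up to 0.384, without the Ly6Clow library of SULT2B1b tumour 2). With tumour as a block the adjusted p was 0.361. Thbs3 lies over 11658 bases of Mtx1, a mitochondrial import gene on the other strand, and the library kit does not mark strand, so the reads of these genes cannot be told apart by strand. Mtx1 stood at 29.6 ± 11.5 and 25.2 ± 6.74 CPM in SULT2B1b and Mock Ly6Chigh cells and at 34.0 ± 2.66 and 34.8 ± 4.5 CPM in SULT2B1b and Mock Ly6Clow cells (SD), with an interaction of 0.28 (adjusted p = 0.99). Among the 9 genes tested of thrombospondins and their receptors, Thbs3 alone passed the interaction with edgeR. The beta-3 integrin gene Itgb3, one of these receptors, had 5.30, 28.6, 8.38 and 10.3 CPM in SULT2B1b and 0, 0, 1.66 and 0.181 CPM in Mock Ly6Chigh libraries, and its interaction of 4.14 did not pass (adjusted p = 0.46).

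**Figure D2:**
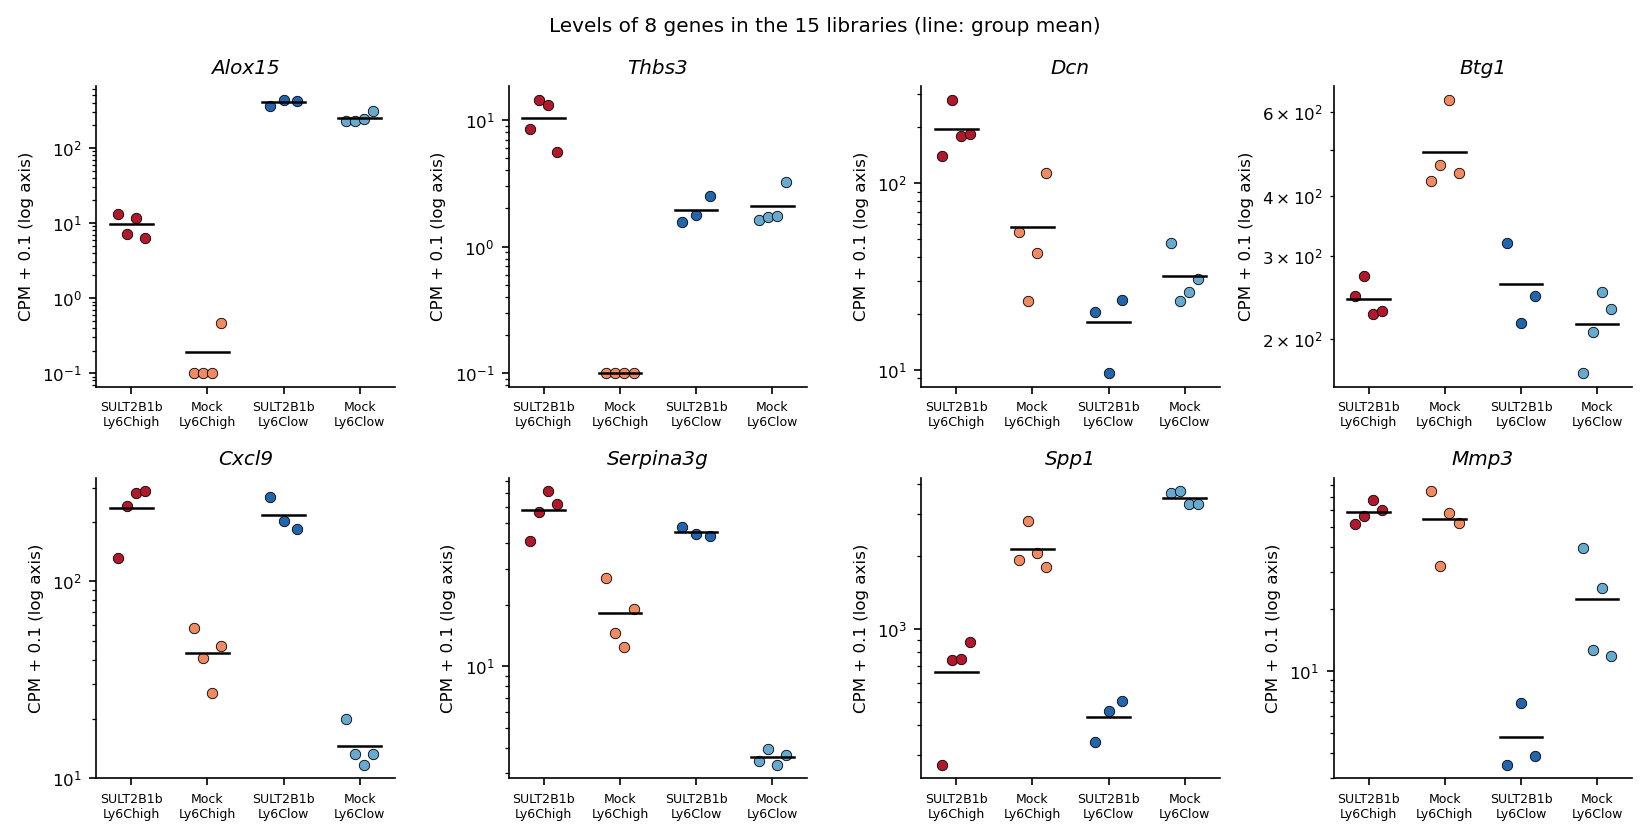
CPM of 8 genes in each of the 15 libraries on log axes, with 0.1 added so that libraries at 0 can be drawn; points are libraries and lines are group means. The Thbs3 values of the 4 Mock Ly6Chigh libraries are all 0, and Serpina3g and Cxcl9 are low in the 4 Mock Ly6Clow libraries.

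Interferon-gamma-inducible genes rose in SULT2B1b tumours in both populations, and the log2 fold change was higher in Ly6Clow than in Ly6Chigh cells for 26 of the 27 list members tested. In Ly6Clow cells 20 of 27 rose (against 0.507% of all genes) and in Ly6Chigh cells 9 of 27 rose (against 0.891%), all 9 of them also in Ly6Clow cells. The median change was 0.88 in Ly6Chigh and 1.51 in Ly6Clow cells, and the median interaction was -0.75, where that of all genes was 0.05. Of the 27, 12 had a negative interaction at an unadjusted p under 0.05, against 3.46% of all genes. In edgeR's test 0 members passed the interaction, and DESeq2 called 3 (against 109 of all 13702 genes). The median of the list stayed between -0.88 and -0.63 in all 27 alternatives.

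The proximal promoters of 3 list members that rose in both populations are shown because the interferon-gamma list moved together. Each is the 250 bases before the gene's start in RefSeq, 5′ to 3′ on the gene's strand, on GRCm38.p6. For Serpina3g this start lies upstream of the gene position given below, which is from GENCODE. Capitals mark an interferon-gamma-activated site (GAS, TTCNNNGAA) in Serpina3g and, on the opposite strand, an interferon response element core (GAAANNGAAA) in Slamf8. Serpina3g lies at chr12:104235897-104236146 (plus strand), Slamf8 at chr1:172590569-172590818 (minus strand) and Cxcl9 at chr5:92328080-92328329 (minus strand).
Serpina3g: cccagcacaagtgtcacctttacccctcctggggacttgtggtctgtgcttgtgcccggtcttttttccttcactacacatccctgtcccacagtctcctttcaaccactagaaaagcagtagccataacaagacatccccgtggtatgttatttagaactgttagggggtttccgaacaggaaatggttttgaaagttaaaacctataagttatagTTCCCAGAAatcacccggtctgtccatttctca
Slamf8: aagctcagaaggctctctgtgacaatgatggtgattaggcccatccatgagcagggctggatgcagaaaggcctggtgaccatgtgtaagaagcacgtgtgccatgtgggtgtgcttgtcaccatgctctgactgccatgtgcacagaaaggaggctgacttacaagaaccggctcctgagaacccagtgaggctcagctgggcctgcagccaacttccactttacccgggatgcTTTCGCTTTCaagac
Cxcl9: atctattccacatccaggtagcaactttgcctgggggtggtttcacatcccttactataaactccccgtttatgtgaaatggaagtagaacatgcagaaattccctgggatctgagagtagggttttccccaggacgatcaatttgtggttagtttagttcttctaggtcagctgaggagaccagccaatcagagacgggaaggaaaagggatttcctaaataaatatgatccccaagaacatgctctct

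The Serpina3g match spans positions -33 to -25 and the Slamf8 match -15 to -6 before the RefSeq start, and neither motif is in the Cxcl9 window. Both strands were searched, and the GAS pattern reads the same on both. Of the 28 listed interferon-gamma genes 18 had a promoter entry. The GAS pattern was in 9 of these and the response element core in 12, against 7.02% and 2.98% of 32851 mouse promoters of the same length. A match is a description of the sequence only.

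Serpina3g, an interferon-inducible serine protease inhibitor of leukocytes, had the smallest interaction p of the list (gene on chromosome 12, 104236245 to 104241939). It stood at 40.9, 56.8, 71.4 and 61.8 CPM in SULT2B1b and 26.9, 14.5, 12.3 and 19.0 CPM in Mock Ly6Chigh libraries. In Ly6Clow cells it stood at 47.6, 44.2 and 43.4 CPM in SULT2B1b and 3.33, 3.86, 3.21 and 3.57 CPM in Mock libraries. SULT2B1b libraries lay above Mock libraries in both populations, and the lowest of the 4 groups was Mock Ly6Clow. The gene rose 3.18-fold in Ly6Chigh cells (adjusted p = 0.0054) and 12.9-fold in Ly6Clow cells (adjusted p = 1.05e-05). The interaction of -2.02 (SE 0.36) did not pass (adjusted p = 0.13), and DESeq2 was the only 1 of 27 alternatives that called it.

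Cxcl9, a chemokine that draws CXCR3-positive lymphocytes, showed the same order of levels. Its Ly6Chigh libraries had 131, 242, 281 and 288 CPM in SULT2B1b and 57.8, 40.8, 26.8 and 46.9 CPM in Mock tumours, and its Ly6Clow libraries had 268, 202 and 184 CPM in SULT2B1b and 19.7, 13.1, 11.6 and 13.1 CPM in Mock tumours. The fold change was 5.48 in Ly6Chigh and 15.1 in Ly6Clow cells, and the interaction of -1.47 (SE 0.39) did not pass (adjusted p = 0.34). In SULT2B1b tumours the log2(CPM + 1) difference of Ly6Chigh over Ly6Clow cells was -0.14, 0.47 and 0.64, below the 1.502, 1.57, 1.14 and 1.77 of Mock tumours. Ly6Chigh cells had more Cxcl9 than Ly6Clow cells in 2 of 3 SULT2B1b and 4 of 4 Mock tumours, and the tumour types did not overlap.

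Gbp4, an interferon-induced guanylate-binding protein gene, had 123, 129, 148 and 122 CPM in SULT2B1b and 84.2, 37.3, 56.0 and 73.4 CPM in Mock Ly6Chigh libraries. In Ly6Clow cells it had 74.7, 62.5 and 53.4 CPM in SULT2B1b and 10.2, 3.94, 12.8 and 10.2 CPM in Mock libraries. It passed in Ly6Clow cells (6.85-fold, adjusted p = 0.00064) and missed in Ly6Chigh cells (2.08-fold, adjusted p = 0.089), and its interaction of -1.72 did not pass (adjusted p = 0.33). Gbp4 shares bases and sequence with Gbp8 and Gbp9, so its reads are uncertain. Slamf8, a receptor of myeloid cells, rose 2.58-fold in Ly6Chigh and 4.60-fold in Ly6Clow cells, and Ly6a, which encodes Sca-1, rose 2.70-fold and 4.26-fold, with interactions of -0.84 and -0.66 that did not pass.

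Over the whole list the gap between the populations was smaller in SULT2B1b tumours, which is the negative interaction put another way and not a separate result. The median Ly6Chigh over Ly6Clow log2 fold change was 0.70 in SULT2B1b and 1.39 in Mock tumours, and 26 of 27 members were higher in Ly6Chigh cells in each tumour type. The type I interferon list of 27 genes tested had a median interaction of -0.37 with 25 negative. Its median change was 0.09 in Ly6Chigh and 0.47 in Ly6Clow cells. In Ly6Clow cells 1 member rose (against 0.507% of all genes), Zbp1, a sensor of nucleic acids (1.12, adjusted p = 0.0012). In Ly6Chigh cells 0 members rose (against 0.891%). Ifih1, which encodes the RNA sensor MDA5, had changes of -0.37 in Ly6Chigh and 0.29 in Ly6Clow cells. No type I list member passed the interaction with edgeR or DESeq2, and 5 were negative at an unadjusted p under 0.05 (against 3.46% of all genes).

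Of 15 MHC class II genes tested, 7 rose in Ly6Clow cells (against 0.507% of all genes) and 4 in Ly6Chigh cells (against 0.891%), and 13 had a negative interaction, 7 of them at an unadjusted p under 0.05 (against 3.46%). The median interaction was -0.73. In edgeR's test 0 passed, and DESeq2 called 3 (against 109 of all 13702 genes). H2-Aa, the MHC class II alpha chain, had 5685, 8396, 6860.3 and 8463 CPM in SULT2B1b and 4278, 4419, 5244 and 3996 CPM in Mock Ly6Chigh libraries, and 6622, 5187 and 6888 CPM in SULT2B1b and 2553, 2199.6, 2061 and 2338 CPM in Mock Ly6Clow libraries. Its groups were separate in both populations, and Mock Ly6Clow cells had the least. H2-Aa rose 1.64-fold in Ly6Chigh (adjusted p = 0.0195) and 2.72-fold in Ly6Clow cells (adjusted p = 0.00016), with an interaction of -0.73 (SE 0.20, adjusted p = 0.35).

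Cd74, the invariant chain that escorts class II molecules, averaged 18862 ± 3662 and 12668 ± 2069 CPM in SULT2B1b and Mock Ly6Chigh cells, and 20695 ± 3360.2 and 7274 ± 1175 CPM in SULT2B1b and Mock Ly6Clow cells (SD). It rose 2.84-fold in Ly6Clow cells, and its 1.49-fold difference in Ly6Chigh cells did not pass (adjusted p = 0.085). H2-Eb1 and the peptide exchange genes H2-DMa and H2-DMb1 passed in both populations and had interactions of -0.76, -0.50 and -0.58 that did not pass. H2-DMa overlaps Brd2 on the other strand, so its reads are uncertain. The median class II gap of Ly6Chigh over Ly6Clow cells was 0.01 in SULT2B1b and 0.67 in Mock tumours, the same interaction put another way. The Ly6Chigh sort selected MHC-II+ cells in both tumour types. The Ly6Clow cells are labelled by Ly6C only, so whether they were also gated on class II protein is not known. The part of such a gate in this result was not tested.

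For MHC class I and its peptide loading, 10 of 22 genes rose in Ly6Clow cells (against 0.507% of all genes) and 4 in Ly6Chigh cells (against 0.891%), with a median interaction of -0.19 and 18 negative. H2-K1, a classical class I heavy chain, had 3555, 3348 and 3144 CPM in SULT2B1b and 1858, 1965, 2113 and 2180.4 CPM in Mock Ly6Clow libraries, against 2983, 3349.9, 3634 and 3535 CPM in SULT2B1b and 3148, 2788, 3314 and 3053 CPM in Mock Ly6Chigh libraries. It was lower in Mock Ly6Clow cells than in the other 3 groups, which overlapped. Its fold change was 1.65 in Ly6Clow (adjusted p = 0.0011) and 1.10 in Ly6Chigh cells (adjusted p = 0.52), and the interaction of -0.59 (SE 0.13) missed the threshold (adjusted p = 0.24). H2-Q6, a non-classical class I gene with near-identical paralogs, had an interaction of -1.21 (adjusted p = 0.33), while the immunoproteasome gene Psmb9 rose in both populations (1.64-fold and 1.85-fold in Ly6Chigh and Ly6Clow cells) with an interaction of -0.18 (95% interval -0.51 to 0.15). Psmb9 overlaps Tap1 on the other strand.

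**Figure D3:**
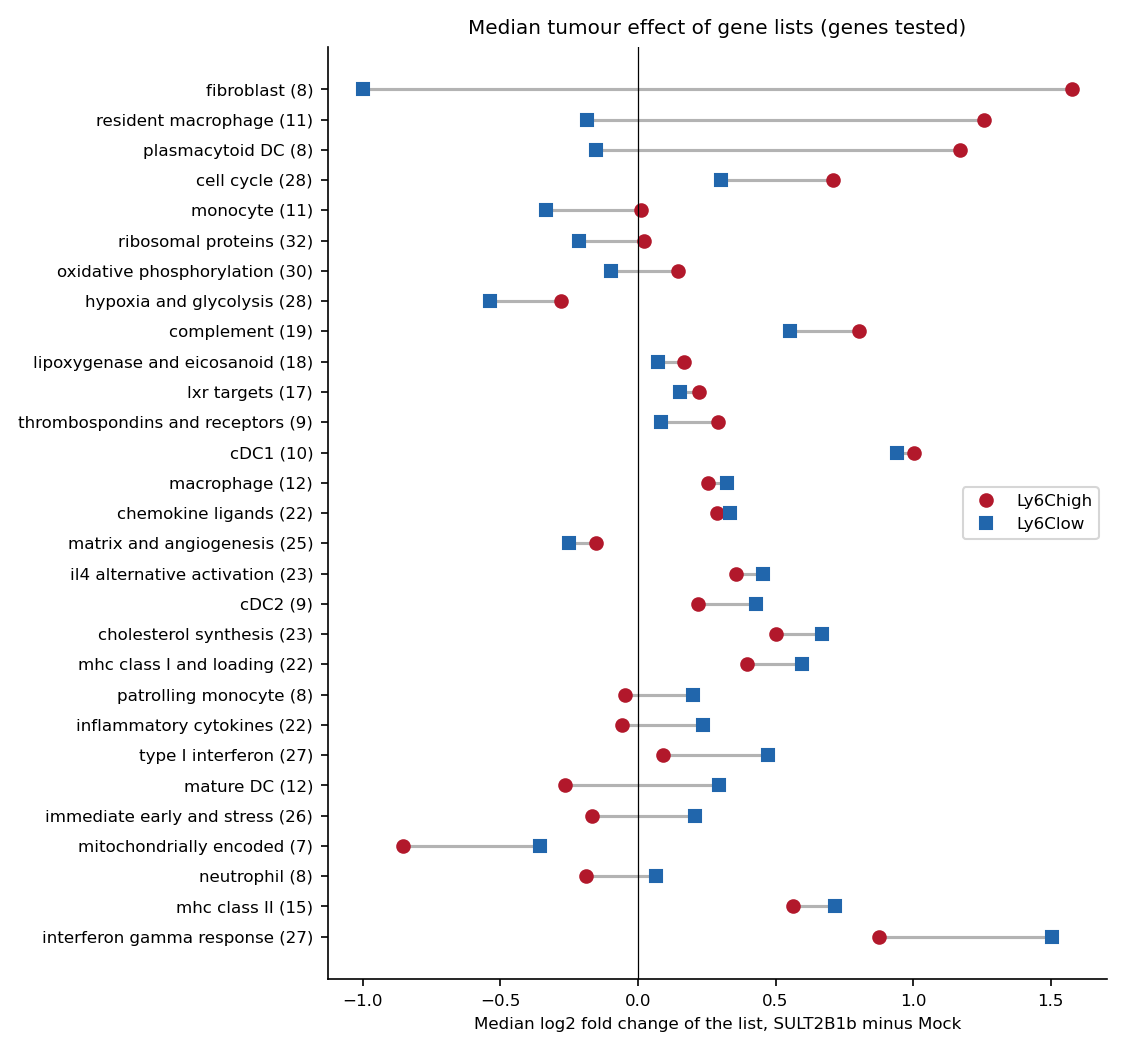
Median log2 fold change of SULT2B1b over Mock for each gene list with 7 or more genes tested, in Ly6Chigh cells (circles) and Ly6Clow cells (squares), ordered by the median interaction; the number of genes tested is in brackets. The interferon-gamma list has a median of 0.88 in Ly6Chigh and 1.51 in Ly6Clow cells, and the fibroblast list one of 1.58 in Ly6Chigh and -0.999 in Ly6Clow cells.

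Markers of connective tissue cells had a median change above 0 in Ly6Chigh and below 0 in Ly6Clow cells. All 8 fibroblast markers tested had a positive interaction, with a median of 2.54 against 0.05 for all genes, a median change of 1.58 in Ly6Chigh cells and one of -0.999 in Ly6Clow cells. In Ly6Chigh cells 2 rose, Dcn and Pdgfra (against 0.891% of all genes), and in Ly6Clow cells 0 passed (against 0.638%). Of the 8, 4 had a positive interaction at an unadjusted p under 0.05 (against 3.68% of all genes) and 0 passed with edgeR. Unweighted limma-voom called 1 (against 4 of all 13800 genes) and DESeq2 called 3 (against 109 of 13702). The sum of the 9 listed markers ranged from 651 to 1526 CPM in SULT2B1b and from 143 to 728 CPM in Mock Ly6Chigh libraries, and from 52.6 to 151 CPM in SULT2B1b and from 144 to 321 CPM in Mock Ly6Clow libraries. No listed marker was at 0 in a whole group. The median stayed between 2.15 and 2.83 in all 27 alternatives.

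Dcn, which encodes the collagen-binding proteoglycan decorin, had 140.1, 279, 179 and 183 CPM in SULT2B1b and 54.5, 23.3, 42.1 and 112 CPM in Mock Ly6Chigh libraries. In Ly6Clow cells it had 20.4, 9.51 and 23.7 CPM in SULT2B1b and 47.5, 23.3, 25.9 and 30.4 CPM in Mock libraries. The Ly6Chigh groups were separate and the Ly6Clow groups overlapped. Dcn rose 3.36-fold in Ly6Chigh cells (adjusted p = 0.0496), and the interaction of 2.58 (SE 0.62) did not pass (adjusted p = 0.31). Pdgfra, a growth factor receptor of mesenchymal cells, had 8.71, 7.47, 5.84 and 17.9 CPM in SULT2B1b and 0.218, 0, 0 and 0.272 CPM in Mock Ly6Chigh libraries, 307 counts against 5 and a ratio of 80.8 (95% interval 34.2 to 251, for counting error only). In Ly6Clow cells it had 0.809, 0.102 and 0 CPM in SULT2B1b and 1.30, 1.87, 1.94 and 3.10 CPM in Mock libraries, so the order of the tumour types was reversed there. Its interaction did not pass (adjusted p = 0.24).

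Outside the list, Serpinh1 and Ddr2 had small interaction p values, for which they were chosen, and neither passed. Serpinh1, the collagen chaperone HSP47, had 20.4, 70.1, 55.6 and 65.5 CPM in SULT2B1b and 19.6, 8.75, 10.4 and 29.0 CPM in Mock Ly6Chigh libraries, and 4.74, 2.18 and 6.23 CPM in SULT2B1b and 12.9, 10.6, 14.9 and 17.2 CPM in Mock Ly6Clow libraries. SULT2B1b tumour 1 lay within the Mock range in Ly6Chigh cells, and the Ly6Clow groups were separate in the other direction. The interaction was 3.31 (SE 0.68, adjusted p = 0.24). Ddr2, a collagen receptor tyrosine kinase, had an interaction of 4.00 (SE 0.96, adjusted p = 0.31), from changes of 1.59 in Ly6Chigh and -2.41 in Ly6Clow cells. It had 4.54, 28.8, 28.2 and 27.1 CPM in SULT2B1b and 4.14, 13.5, 4.11 and 7.88 CPM in Mock Ly6Chigh libraries. Again SULT2B1b tumour 1 was within the Mock range there and tumours 2 to 4 were above it. In Ly6Clow cells the groups were separate in the other direction, at 1.08, 0.477 and 0.986 CPM in SULT2B1b and 5.97, 3.94, 6.47 and 1.75 CPM in Mock libraries. The part of fibroblasts or their RNA in these results was not tested.

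Epithelial genes and the transferred gene itself were also counted. Krt8, a keratin of simple epithelia, had 0.757, 5.86, 3.68 and 10.1 CPM in SULT2B1b and 0 CPM in all 4 Mock Ly6Chigh libraries, at least 63.2-fold higher by the 95% counting interval (78.5-fold with the Mock group set at the floor of 3 counts). Epcam, an epithelial adhesion molecule gene of the same list, had few reads and the opposite order, at 0.146 ± 0.183 and 1.08 ± 1.36 CPM in SULT2B1b and Mock Ly6Chigh cells and 1.80 ± 1.38 and 0.383 ± 0.398 CPM in SULT2B1b and Mock Ly6Clow cells (SD), and its interaction did not pass (adjusted p = 0.68). The Krt8 level in Ly6Clow cells was 0.809, 1.43 and 0.282 CPM in SULT2B1b and 0.571, 0.389, 0.815 and 0.0939 CPM in Mock libraries, and the Krt8 interaction did not pass (adjusted p = 0.31). Sult2b1 stood at 9.84, 9.31, 10.5 and 19.1 CPM in SULT2B1b Ly6Chigh libraries and at 1.12, 1.29 and 2.39 CPM in SULT2B1b Ly6Clow libraries, while Mock libraries had 0 to 0.51 CPM in either population. Its interaction of 3.70 (SE 1.62) did not pass (adjusted p = 0.66). RNA of the LLC cells, which carry SULT2B1b, and transcription in the sorted cells cannot be told apart, and Sult2b1 overlaps Lmtk3 on the other strand. The sum of 9 epithelial markers overlapped between the tumour types in Ly6Chigh cells, at 45.1 to 92.6 CPM in SULT2B1b and 39.5 to 84.1 CPM in Mock libraries.

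**Figure D4:**
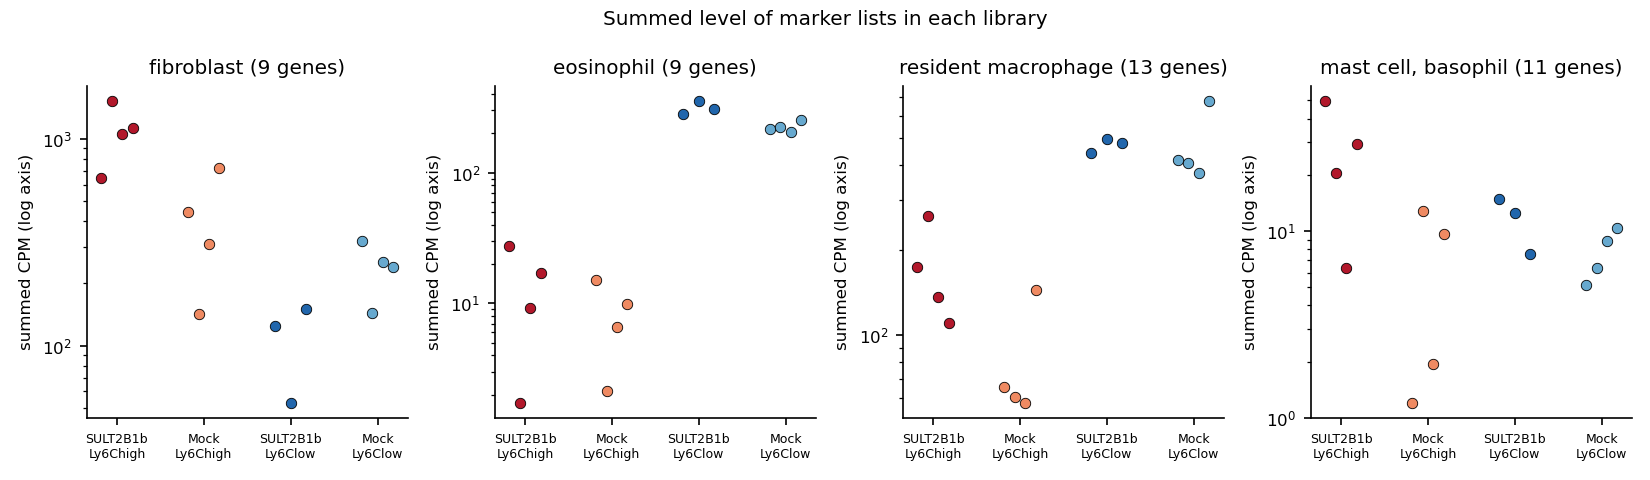
Summed CPM of 4 marker lists in each of the 15 libraries, on log axes. Fibroblast sums are highest in SULT2B1b Ly6Chigh libraries (651 to 1526 CPM) and run from 52.6 to 151 CPM in SULT2B1b Ly6Clow libraries, where they overlap the lowest Mock libraries of both populations (143 and 144 CPM), with SULT2B1b tumour 1 at 651 CPM within the Mock Ly6Chigh range of 143 to 728 CPM; eosinophil sums are far lower in Ly6Chigh than in Ly6Clow libraries of either tumour type.

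A group of genes fell in SULT2B1b tumours in Ly6Chigh cells and differed little in Ly6Clow cells. They were chosen for the smallest interaction p among genes that did not pass, so their sizes are a description. Btg1, an antiproliferative transcription cofactor that is high in quiescent leukocytes, had 247, 271, 226 and 229 CPM in SULT2B1b and 431, 464, 638 and 448 CPM in Mock Ly6Chigh libraries. In Ly6Clow cells it had 319, 217 and 246 CPM in SULT2B1b and 169.6, 207, 251 and 232 CPM in Mock libraries. The Ly6Chigh groups were separate and the Ly6Clow groups overlapped, and the Mock Ly6Chigh group was the highest of the 4. Btg1 fell 2.04-fold in Ly6Chigh cells (adjusted p = 0.0063), with an interaction of -1.31 (SE 0.23, adjusted p = 0.13) that passed in the fit without the Ly6Chigh library of Mock tumour 4 and with DESeq2.

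Tmem170b, a membrane protein gene, had 23.5, 31.5, 32.5 and 24.4 CPM in SULT2B1b and 112, 101, 77.6 and 76.3 CPM in Mock Ly6Chigh libraries, against 48.6, 42.1 and 44.4 CPM in SULT2B1b and 67.1, 46.0, 53.2 and 50.8 CPM in Mock Ly6Clow libraries. Klf9, a zinc-finger transcription factor induced by glucocorticoids, had 2.65, 0.345, 1.02 and 1.87 CPM in SULT2B1b and 18.3, 12.7, 41.1 and 30.6 CPM in Mock Ly6Chigh libraries, and 8.18 to 26.7 CPM in all Ly6Clow libraries. For both genes the SULT2B1b Ly6Chigh libraries were the lowest of all. They fell 3.27-fold and 18.7-fold in Ly6Chigh cells, with interactions of -1.44 (adjusted p = 0.14) and -3.64 (adjusted p = 0.24). Suco, a gene of an endoplasmic reticulum protein needed for bone formation in the mouse, fell 3.18-fold in Ly6Chigh cells, and Spsb1, an adaptor that targets inducible nitric oxide synthase for degradation, fell 3.80-fold. Their interactions were -1.70 (adjusted p = 0.15) and -1.68 (adjusted p = 0.24).

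Other genes with a small interaction p, likewise a description, rose in Ly6Chigh cells and had no change past the threshold in Ly6Clow cells. Mgst1 and Ndufa9 were chosen among the genes past the threshold in Ly6Chigh cells. G6pdx, the entry enzyme of the pentose phosphate pathway, had 155, 184, 173 and 199 CPM in SULT2B1b and 94.1, 88.1, 100.2 and 104 CPM in Mock Ly6Chigh libraries, and 131, 160.1 and 152 CPM in SULT2B1b and 162, 145, 139.9 and 126 CPM in Mock Ly6Clow libraries. The Mock Ly6Chigh group was lower than the other 3, which overlapped. G6pdx rose 1.84-fold in Ly6Chigh cells (adjusted p = 0.0027) with an interaction of 0.84 (SE 0.18, adjusted p = 0.24), and it overlaps Ikbkg on the other strand. Rhbdd1, a rhomboid protease gene, rose 2.70-fold in Ly6Chigh cells with an interaction of 1.79 (adjusted p = 0.24). Mgst1, a microsomal glutathione transferase, rose 3.54-fold there with an interaction of 1.15 (adjusted p = 0.33), and Ndufa9, a respiratory complex I subunit, rose 1.76-fold with one of 0.87 (adjusted p = 0.32). Dap3, a mitochondrial ribosome subunit that did not pass in either population, had an interaction of 0.99 (adjusted p = 0.31) from changes of 0.60 in Ly6Chigh and -0.38 in Ly6Clow cells, and it overlaps Ash1l on the other strand.

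**Figure D5:**
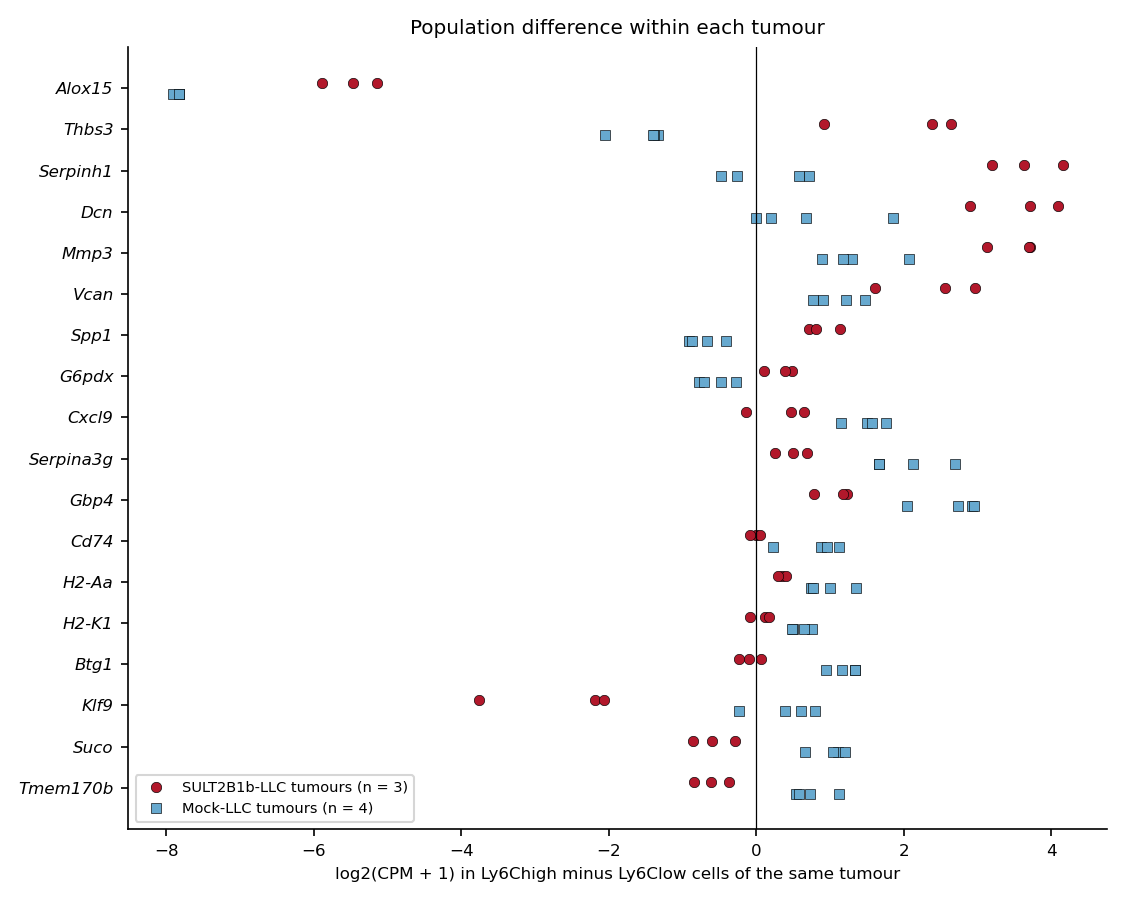
Difference of log2(CPM + 1) between Ly6Chigh and Ly6Clow cells of the same tumour for 18 genes, in 3 SULT2B1b tumours (circles) and 4 Mock tumours (squares). The tumour types do not overlap for any gene drawn, with SULT2B1b tumours to the right for the upper 8 genes and to the left for the lower 10; the genes were chosen after their values were seen.

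Compared tumour by tumour without a model, 1423 genes (10.3%) had Ly6Chigh minus Ly6Clow differences that did not overlap between the 3 SULT2B1b and 4 Mock tumours, 762 above (5.52%) and 661 below (4.79%). For a single gene, a random order of 3 and 4 tumours gives no overlap with a probability of 0.0571. Among the genes drawn in the plot of differences within tumours this holds by choice. For Btg1 the differences were -0.23, 0.06 and -0.10 in SULT2B1b and 1.34, 1.16, 1.34 and 0.95 in Mock tumours. For G6pdx they were 0.49, 0.11 and 0.38 in SULT2B1b and -0.78, -0.71, -0.48 and -0.27 in Mock tumours. For Btg1 every SULT2B1b tumour was nearer to 0 than every Mock tumour, and for G6pdx the distances from 0 overlapped while the signs were opposite.

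Of the 25 matrix and angiogenesis genes tested, 4 fell in Ly6Clow cells (against 0.13% of all genes). In Ly6Chigh cells 3 fell (against 0.725%) and 1 rose (against 0.891%). Spp1, which encodes osteopontin, had 274, 747, 750.1 and 879.6 CPM in SULT2B1b and 1937, 2800.3, 2067 and 1813 CPM in Mock Ly6Chigh libraries, and 339, 455 and 501 CPM in SULT2B1b and 3655, 3727, 3301 and 3308 CPM in Mock Ly6Clow libraries. The tumour types were separate in both populations. Spp1 fell 3.25-fold in Ly6Chigh (adjusted p = 0.0063) and 8.10-fold in Ly6Clow cells (adjusted p = 0.00016), and the interaction of 1.32 (SE 0.38) did not pass (adjusted p = 0.41). In Mock tumours Ly6Chigh cells had less Spp1 than Ly6Clow cells of the same tumour (log2 differences of -0.92 to -0.41), and in SULT2B1b tumours they had more (0.72 to 1.14).

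Mmp3, the matrix protease stromelysin-1, had 51.5, 56.3, 67.4 and 60.3 CPM in SULT2B1b and 74.3, 32.1, 58.1 and 52.1 CPM in Mock Ly6Chigh libraries, and 3.39, 6.85 and 3.73 CPM in SULT2B1b and 39.5, 12.4, 25.2 and 11.6 CPM in Mock Ly6Clow libraries. It fell 4.75-fold in Ly6Clow cells (adjusted p = 0.022), and its interaction was 2.37 (SE 0.56, adjusted p = 0.31). Vcan, the proteoglycan versican, fell 3.75-fold in Ly6Clow cells (adjusted p = 0.0012), with an interaction of 1.38 (SE 0.33, adjusted p = 0.31). The tumour types overlapped in Ly6Chigh cells for both genes. Fn1, fibronectin, fell in both populations (1.76-fold and 2.43-fold in Ly6Chigh and Ly6Clow cells) with an interaction of 0.46 (95% interval -0.08 to 1.00). Over the whole list the median interaction was -0.0031, with 12 positive and 13 negative, and it was 0.58 with tumour as a block. Thbs3 was the member that passed. Vegfa, the vascular growth factor gene, went the other way, falling 2.99-fold in Ly6Chigh cells with an interaction of -1.01 (adjusted p = 0.68).

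The hypoxia and glycolysis list held 1 gene of 28 that fell in Ly6Chigh cells (against 0.725% of all genes) and 2 that fell in Ly6Clow cells (against 0.13%), with median changes of -0.28 in Ly6Chigh and -0.54 in Ly6Clow cells. Of 28, 23 had a positive interaction (median 0.24), 3 of them at an unadjusted p under 0.05, against 3.68% of all genes. Without the Ly6Chigh library of SULT2B1b tumour 1 this was 7 of 28, against 627 of 14170 genes. With edgeR or DESeq2 0 passed. Pgk1, the glycolytic phosphoglycerate kinase, fell 1.69-fold in Ly6Clow cells (adjusted p = 0.047) and had an interaction of 0.57 (adjusted p = 0.57).

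Lipid genes read out LXR and the sterol-sensing SREBP2 pathway. The 17 LXR targets tested had a median interaction of 0.15 (9 positive and 8 negative), and the 23 cholesterol synthesis genes one of -0.14 (8 positive and 15 negative). In either list 0 passed with edgeR or DESeq2. An unadjusted p under 0.05 was found for 2 of 17 LXR targets and 1 of 23 cholesterol genes, against 7.14% of all genes. Without the Ly6Chigh library of SULT2B1b tumour 1 these counts were 5 and 3, against 1396 of 14170 genes. Pltp, the phospholipid transfer protein and an LXR target, had 607, 554, 559 and 495 CPM in SULT2B1b and 303, 275, 264 and 306 CPM in Mock Ly6Chigh libraries, and 1139.6, 1249 and 1249 CPM in SULT2B1b and 779, 804, 801 and 828.7 CPM in Mock Ly6Clow libraries. It rose in both (1.93-fold and 1.51-fold in Ly6Chigh and Ly6Clow cells), and the interaction of 0.36 had a 95% interval of 0.09 to 0.62 and did not pass (adjusted p = 0.53). Pltp overlaps Ctsa on the other strand. Apoe, the apolipoprotein E gene and another LXR target, rose 1.70-fold in Ly6Clow cells, had a change of 0.16 in Ly6Chigh cells that did not pass, and an interaction of -0.61 (adjusted p = 0.46).

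Msmo1, a sterol demethylase of cholesterol synthesis, and Naaa had interactions close to 0. It had 159, 170.1, 189 and 184 CPM in SULT2B1b and 106, 96.1, 94.0 and 84.6 CPM in Mock Ly6Chigh libraries, and 115, 116 and 150.4 CPM in SULT2B1b and 74.4, 64.1, 75.9 and 70.6 CPM in Mock Ly6Clow libraries. The rise was 1.85-fold in Ly6Chigh and 1.79-fold in Ly6Clow cells, and the interaction of 0.05 had a 95% interval of -0.34 to 0.43. Naaa, a lysosomal amidase gene expressed in cross-presenting dendritic cells, likewise rose 2.11-fold and 2.07-fold, with an interaction of 0.03 (95% interval -0.37 to 0.43). Nsdhl, a sterol dehydrogenase, rose 2.04-fold in Ly6Chigh cells (adjusted p = 0.030) with an interaction of 0.62 (adjusted p = 0.75).

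Complement genes differed in the sign of the interaction, and 0 passed it with edgeR. C3, the central complement protein and an interferon-responsive gene, had 585, 415, 439 and 369.7 CPM in SULT2B1b and 469, 247, 145 and 269.9 CPM in Mock Ly6Chigh libraries, and 325, 206 and 236 CPM in SULT2B1b and 50.2, 75.1, 52.1 and 46.2 CPM in Mock Ly6Clow libraries. It rose 4.57-fold in Ly6Clow cells (adjusted p = 0.0018), did not pass in Ly6Chigh cells, where the groups overlapped, and had an interaction of -1.52 (SE 0.41, adjusted p = 0.35). C1qa, a chain of the C1q recognition molecule, rose in both populations, 2.08-fold in Ly6Chigh and 1.47-fold in Ly6Clow cells, with an interaction of 0.51 (adjusted p = 0.46). Of the 19 complement genes tested 13 had a positive interaction and 6 a negative one, against 7350 positive of all 13800 genes. At an unadjusted p under 0.05, 1 was positive and 2 were negative (against 3.68% and 3.46% of all genes).

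Lists of broadly expressed genes held small shifts in 1 direction. All 32 ribosomal protein genes tested had a positive interaction (median 0.27), from medians of 0.02 in Ly6Chigh and -0.22 in Ly6Clow cells. An unadjusted p under 0.05 was reached by 0, against 3.68% of all genes in the positive direction. Without the Ly6Chigh library of SULT2B1b tumour 1 it was reached by 7, all positive, against 627 of 14170 genes. Rps23, the member with the smallest p, had an interaction of 0.35 (adjusted p = 0.71). Of 30 oxidative phosphorylation genes 27 were positive (median 0.24), among them Atp5j, an ATP synthase subunit, with an interaction of 0.70 (adjusted p = 0.33) and an overlap with Gabpa on the other strand. The 7 mitochondrially encoded genes tested went the other way in 6 cases, with a median of -0.52. Of these genes 3 had a negative interaction at an unadjusted p under 0.05 (against 3.46% of all genes), and 0 passed. In Ly6Chigh cells 5 of the 7 fell in SULT2B1b tumours (against 0.725% of all genes), and in Ly6Clow cells 0 fell (against 0.13%). In Ly6Chigh cells mt-Nd1 stood at 1580.5, 1661, 1951 and 2045 CPM in SULT2B1b against 3077, 4751, 2793 and 3696 CPM in Mock libraries (adjusted p = 0.012). Mitochondrial counts made up 1.79% to 2.26% of SULT2B1b and 2.40% to 4.62% of Mock Ly6Chigh libraries, and 1.72% to 2.06% of SULT2B1b and 2.02% to 2.57% of Mock Ly6Clow libraries. The part of RNA quality in these shifts was not tested.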

How the data were processed

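The series holds 15 RNA-seq libraries of sorted myeloid cells from mouse LLC tumours. Per the labels' protocols, 500 ng of total RNA entered each SMART-Seq v4 library, sequenced as single-end reads of 75 nt on a NextSeq 500. The authors deposited whole-number counts per gene symbol, not normalized, as read from the values. STAR 2.5.3a, featureCounts and limma, with mm10 and GRCm38, are named in the submitters' processing notes; the annotation release and counting options are not stated in those notes, the labels or the table.

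Of 50508 symbols, 15730 had no count in any library. In R 4.3.3 with edgeR 4.0.16, filterByExpr kept 13800 genes, TMM factors scaled the libraries, and a robust quasi-likelihood model was fitted to the 4 groups, with two-sided tests and Benjamini-Hochberg adjustment over all genes. The interaction's standard error is its size over the root of its F statistic. CPM uses TMM-adjusted library sizes. Every adjusted p is edgeR's unless another tool is named. Intervals of count ratios and floors of 3 counts cover counting error only. Replicates of a group differed by more than counting noise (chi-square over its degrees of freedom, 22.9 to 104). Gene positions come from GENCODE mouse release M21 on GRCm38, where 94.3% of symbols were found. The fit was also run on simulated counts with 1 spread per gene and no shared tumours. That run does not cover the unequal spread of the populations or their shared tumours. Alternatives were other scaling factors and filters, DESeq2 1.42.0, limma 3.58.1 (voom), a tumour block and each library left out.

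By the labels, Ly6Chigh and Ly6Clow libraries with the same number within a tumour type come from the same tumour. Their deviations from the group means correlated at 0.0365 to 0.104 in Mock and 0.0772 to 0.158 in SULT2B1b tumours, and at -0.114 to 0.0939 between different tumours.

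The gene lists, the contrast and the rule for named genes were chosen with earlier results of these data known. The rule took genes past the interaction threshold, the 8 per direction with the smallest interaction p among the others whose average log2 CPM was at least 3, 2 members per list by interaction p, up to 4 per list past the threshold in both populations, 6 per direction by interaction p among genes past the threshold in each population, and 9 genes by name. This gave 99 genes, and those in the text were picked from them after their values were seen. Mtx1 was added for its overlap with Thbs3. A few items are not reported here.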

Additional observations from a re-analysis of the deposited data

Results flagged for a closer look

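The test of the difference between the populations passed for 2 genes: Alox15, with an interaction of 5.66 on the log2 scale, and Thbs3. For Thbs3 the Ly6Chigh ratio against the floor of 3 counts, divided by the Ly6Clow ratio, was 141-fold, a value with no error on the Ly6Clow ratio. The populations share tumours, and neither gene passed in edgeR with tumour as a block (adjusted p = 0.0776 for Alox15 and 0.361 for Thbs3). Thbs3 also missed the threshold in 12 of 15 fits that left out a library.

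Of 204 groups of 4 libraries examined for the named genes, 13 had a library that stood apart from the other 3, where chance alone gives about 1 in 20. In SULT2B1b Ly6Chigh cells these were Ddr2 in tumour 1 (4.54 CPM, below the others), Sult2b1 in tumour 4 (19.1 CPM, above), Cxcr2, a chemokine receptor of neutrophils, in tumour 4 (0.104 CPM, above 0 in the others), Prg2 in tumour 2 (1.49 CPM, above 0) and Ly6c1, a near-identical copy of Ly6c2, in tumour 2 (34.9 CPM, above). In Mock Ly6Chigh cells they were Alox15 in tumour 4 (0.362 CPM, above 0), Btg1 in tumour 3 (638 CPM, above), Ly6a in tumour 3 (253 CPM, below) and Itgb3 in tumour 3 (1.66 CPM, above). In Mock Ly6Clow cells they were Alox15 in tumour 4 (308 CPM, above), Thbs3 in tumour 4 (3.13 CPM, above), H2-Q6 in tumour 3 (92.5 CPM, above) and Vcan in tumour 3 (81.2 CPM, above).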

How the results depend on the processing

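The number of genes past the interaction threshold was 2 with median-ratio, upper-quartile or no scaling factors, without robust settings and at an adjusted p under 0.1. It was 1 with no filter on low counts, 1 among better expressed genes (average log2 CPM at least 3), 4 with limma-voom, 0 with quality weights per population or per library, and 109 with DESeq2. With tumour as a replicate block it was 0 in edgeR and 4 in limma-voom. It was 986 at an unadjusted p under 0.05, and 1 to 28 with a library left out. In Ly6Chigh cells the count of 223 became 109 with no filter, 992 with DESeq2, 12 with weights per population, 19 with weights per library and 3 with the Ly6Chigh libraries alone, and ran from 91 to 358 with a library left out. In Ly6Clow cells the count of 88 became 198 with DESeq2, 255 with limma-voom, 259 with limma-voom and the block, 600 and 708 with weights per population and per library and 422 alone, and ran from 41 to 107 with a library left out. Without 1 tumour the count of genes with no overlap, 1423, ran from 2049 to 2722, since fewer tumours overlap less. The cause of the other shifts was not tested. The median interaction over all genes was 0.61 with no filter and between -0.01 and 0.09 otherwise.

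In edgeR Alox15 and Thbs3 lost their call with the replicate block, and no other interaction of a gene named in the text changed its call with the block, in edgeR or in limma-voom. Pdgfra passed in limma-voom with and without the block (adjusted p = 0.018 with it). Some interactions changed sign. The Msmo1 interaction was -0.0058 with no filter and ran from -0.037 to 0.171 with a library left out. Naaa was -0.030 with no filter, -0.052 with weights per library and -0.091 to 0.10 with a library left out. With a library left out Ly6c1 ran from -0.76 to 0.82, Ly6c2 from -0.023 to 0.332 and Prg2, at 0 in 7 of 8 Ly6Chigh libraries, from -0.76 (without the Ly6Chigh library of SULT2B1b tumour 2) to 5.81. The eosinophil list median of 2.58 was -0.41 without the Ly6Chigh library of SULT2B1b tumour 1, and the resident macrophage median of 1.36 was 0.85. The interferon-gamma, MHC class II and fibroblast medians were -0.74, -0.70 and 2.62 without that library. Depth limits the Ly6Chigh arm: 3 counts are 0.272 to 1.14 CPM there and 0.0777 to 0.153 CPM in Ly6Clow libraries.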

Other observations

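All 12 mature dendritic cell genes tested had a negative interaction (median -0.38), with 0 past the threshold with edgeR or DESeq2. At an unadjusted p under 0.05 there was 1, against 3.46% of all genes. That gene was Ccr7, the receptor that guides dendritic cells to lymph nodes, with 12.1, 51.6, 57.1 and 38.3 CPM in SULT2B1b and 53.1, 79.2, 141 and 127 CPM in Mock Ly6Chigh libraries, and an interaction of -1.70 (SE 0.61, edgeR adjusted p = 0.53). The groups overlapped through Mock tumour 1 in Ly6Chigh cells. Itgax, which encodes the sorting antigen CD11c, had an interaction of -1.08 that did not pass (edgeR adjusted p = 0.53). Its Ly6Chigh minus Ly6Clow differences were -0.81, -0.42 and -1.21 in SULT2B1b and 1.17, -0.02, 0.05 and 0.63 in Mock tumours, although CD11c+ cells were sorted in the Ly6Chigh population of both.

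Among cytokine and clotting genes, Il18, an inflammasome cytokine, stood at 67.8, 48.3, 58.6 and 61.1 CPM in SULT2B1b and 29.4, 41.8, 26.6 and 39.7 CPM in Mock Ly6Chigh libraries, and its interaction of 0.95 (SE 0.29) did not pass (edgeR adjusted p = 0.45); it overlaps Bco2 and Tex12 on the other strand. F10, coagulation factor X, fell 2.21-fold in Ly6Clow cells (edgeR adjusted p = 0.0067) and had an interaction of 0.71 (edgeR adjusted p = 0.51). Cxcl14, a chemokine gene, fell in both populations (2.86-fold in Ly6Chigh and 3.67-fold in Ly6Clow cells), with an interaction of 0.36 (95% interval -0.61 to 1.33). Ltc4s, leukotriene C4 synthase, had an interaction of 1.23 (edgeR adjusted p = 0.65).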
